A study of Mus musculus with 16 samples.

Results

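Long non-coding RNAs are long transcripts that are not known to be read as proteins. The 10 genes described here, Malat1, Neat1, Kcnq1ot1, Gas5, Snhg1, Snhg5, Snhg8, Snhg12, Dleu2 and Mir22hg, were picked by symbol as nuclear long non-coding RNAs or as hosts of small nucleolar RNAs (snoRNAs) and microRNAs. They are 10 of the 47069 genes in the deposited count table, each with 1 row.

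Bone marrow-derived macrophages (BMMs) were grown from C57BL/6 mice aged 8 to 10 weeks in medium conditioned by L929 cells. All were primed overnight with IFNγ (10 ng/mL) and activated for 1 hr with Salmonella LPS (100 ng/mL) and IgG-opsonized ovalbumin, an immune complex (IC). One group received DAPT (25 μM), a drug (GSI) that blocks gamma-secretase and with it the release of the Notch intracellular domain, and the other its vehicle DMSO (0.01%), and the methods state that both were present from the night before activation. There were 2 libraries per group, each the sum of 4 runs, and the labels do not say whether they came from separate mice, so that p-values measure the spread between these libraries, which may be technical.

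Nuclear long non-coding RNAs act where they are made. Malat1 gathers in nuclear speckles, which store splicing factors, Neat1 is the scaffold of paraspeckles, bodies that retain RNA-binding proteins, and Kcnq1ot1 silences neighbouring imprinted genes in cis. In a snoRNA host gene the snoRNAs are cut from the introns and guide the chemical modification of ribosomal RNA, while the spliced RNA that remains often starts with a pyrimidine tract (the 5′ TOP, which ties translation to growth signals) and is removed by nonsense-mediated decay. Dleu2 carries miR-15a and miR-16-1 and Mir22hg carries miR-22, microRNAs that repress mRNAs through a short seed. In macrophages Malat1 and Neat1 are known to respond to inflammatory stimuli.

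The microRNAs of both host genes are shown because the seed sets which mRNAs they can pair with. These are the mature RefSeq sequences on GRCm38.p6, 5′ to 3′, with the seed (bases 2 to 8) in capitals:
mmu-miR-15a-5p: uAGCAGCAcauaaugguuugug
mmu-miR-16-5p: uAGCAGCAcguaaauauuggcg
mmu-miR-22-3p: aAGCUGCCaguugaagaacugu
mmu-miR-22-5p: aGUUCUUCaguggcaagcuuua
miR-15a-5p (chr14:61632075-61632096, minus strand) and miR-16-5p (chr14:61631936-61631957, minus strand) shared one seed. The 2 arms of miR-22 (chr11:75463772-75463793 and chr11:75463734-75463755, plus strand) had seeds of their own.

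Start sites are shown for the snoRNA hosts because a 5′ TOP would lie there. RefSeq promoters were matched for 9 of the 10 genes, and Neat1 had none. Each line gives 30 bases before and 30 bases from the annotated start, GRCm38.p6, read along the gene, with the pyrimidine run that touches the start base in capitals (the start base alone where it is a purine):
Snhg8 (chr3:123508307-123508366, minus strand): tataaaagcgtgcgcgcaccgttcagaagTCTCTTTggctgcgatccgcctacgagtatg
Snhg12 (chr4:132308648-132308707, plus strand): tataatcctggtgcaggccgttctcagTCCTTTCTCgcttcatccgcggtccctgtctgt
Snhg1 (chr19:8723457-8723516, plus strand): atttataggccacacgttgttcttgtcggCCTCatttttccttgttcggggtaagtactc
Snhg5 (chr9:88522868-88522927, minus strand): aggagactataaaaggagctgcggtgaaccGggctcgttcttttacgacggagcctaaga
Gas5, first start (chr1:161034571-161034630, plus strand): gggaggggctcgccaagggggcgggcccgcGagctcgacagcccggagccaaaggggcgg
Gas5, second start (chr1:161035136-161035195, plus strand): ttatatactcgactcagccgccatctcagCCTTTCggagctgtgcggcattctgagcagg
Counted from the start base itself, the pyrimidine run was 6 bases in Snhg8, 6 in Snhg12, 5 at the second and 0 at the first start of Gas5, 3 in Snhg1 and 0 in Snhg5. A run of 5 or more at the start base was present in 3 of the 10 starts of the 9 genes and in 4.44% of 32851 RefSeq promoters. The RefSeq start is an annotated base and was not measured in these libraries.

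TATAAA lay upstream of the start in 3 snoRNA hosts, at -30 in Snhg8, -23 in Snhg5 and, on the other strand, -29 in Snhg1, and downstream at 15 in Dleu2. It occurred in 13.6% of all promoters, which span 250 bases before and 50 bases after the start, searched on both strands. TGGGAA, the core letters bound by RBPJ, the DNA-binding partner of Notch, occurred in 2 of the 9 genes, Gas5 (-240 from its first start) and Snhg12 (-89), against 25.6% of all promoters. The CRE TGACGTCA was found at the second start of Gas5 (-46; 1.79% of promoters) and the E-box CACGTG in Dleu2 (-178; 7.15%). CCAAT was found in 4 genes (37.4%), and the AP-1 letters TGACTCA (5.20%) and a canonical NF-κB site (0.155%) in 0. A match only describes these letters in this window.

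Total counts were 42694655 and 56932059 for DMSO and 48483661 and 49511733 for DAPT. A floor of 3 counts corresponded to 0.0529 to 0.0697 CPM (counts scaled by the adjusted library size), for counting error only, since PCR copies were not marked. The macrophage markers were abundant, with Lyz2 at 5400 CPM ± 25.3 (SD, n = 2) with DMSO. Their summed level was 19028 and 19344 CPM with DMSO and 15630 and 16595 CPM with DAPT, and 7 of 10 fell, 1 rose (Mertk) and 2 did not pass. Summed markers of neutrophils, T cells, B cells, fibroblasts and erythroid cells stayed at or under 1.30 CPM in every library, with Elane, Cd3g and Col3a1 at 0 counts. The 5 dendritic cell markers summed to 186 and 179 CPM with DMSO and 113 and 115 CPM with DAPT, nearly all of it Clec9a. Clec9a and Xcr1 (216 and 263 counts with DMSO, 182 and 170 with DAPT) both fell, by 0.69 and 0.42 on the log2 scale (FDR = 1.20e-07 and 0.0175), while Flt3 had at most 2 counts and Siglech 0. The part of these shifts in the results below was not tested, and in bulk RNA fewer cells of a type and less RNA per cell cannot be told apart.

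With DAPT, 4 of the 10 long non-coding RNAs rose (Snhg8, Neat1, Snhg1 and Gas5), 0 fell and 6 did not pass an FDR of 0.05. The largest change was that of Snhg8, 1.56-fold, and none reached the study's second threshold, an absolute log2 fold change above 1.5. All 10 were among the 13211 genes that passed the filter on low counts. Over all of these, 40.8% had an FDR under 0.05, 19% being higher and 21.9% lower with DAPT, so the share of the 10 genes called in either direction was near the background. Past both thresholds were 2.91% of all tested genes. The median log2 fold change of the 10 genes was 0.26, against 0.015 over all tested genes. At an unadjusted p under 0.05, 7 of the 10 were higher and 0 lower with DAPT (23.8% of all tested genes were higher), and DESeq2 called 1 higher and 0 lower.

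The number of calls rested on single libraries, and the calls without DAPT replicate 2 included a fall, that of Mir22hg (-0.25 on the log2 scale). Without DMSO replicate 1, the call was kept by Snhg8 alone, and without DMSO replicate 2 or without DAPT replicate 2 it rose to 7 of 10. DESeq2 called Snhg8 alone as well, in a fit that called 28.5% of 14142 genes. Only Snhg8 had an FDR under 0.05 in every alternative run.

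Of the spliced hosts of snoRNAs, Snhg8 (ENSMUSG00000104960) is the smallest locus, 0.853 kb on the minus strand of chromosome 3 of GRCm38 (123507552 to 123508404), and encloses 1 annotated snoRNA row, Snora24. It was counted 786 and 1187 times with DMSO, against 1599 and 1396 times with DAPT. Both DAPT libraries, at 33.1 and 28.3 CPM, lay above both DMSO libraries, at 18.3 and 20.9 CPM. The rise was 0.64 on the log2 scale (standard error 0.0927, 95% interval 0.45 to 0.84, FDR = 1.24e-05). This and every other FDR is the Benjamini-Hochberg value of the quasi-likelihood test in edgeR. When 1 library was left out, the rise of Snhg8 ranged from 0.53 to 0.75. Such fits take the spread of a lone library from the other group. Their FDRs, here and below, are therefore not on the scale of the fit to all 4 libraries.

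Snhg1 (ENSMUSG00000108414) lies on the plus strand of chromosome 19 (8723475 to 8726443) and encloses 8 annotated snoRNA rows. Its level was 13.4 and 16.2 CPM with DMSO and 18.0 and 19.03 CPM with DAPT, without overlap. Its rise was 0.32 on the log2 scale (standard error 0.0969, 95% interval 0.11 to 0.52, FDR = 0.0132), and without DMSO replicate 1 it was 0.19 with an FDR of 0.222. Its start faces that of Slc3a2, which encodes the heavy chain of amino acid transporters and begins 106 bases away on the other strand. Slc3a2 rose as well, from 565 and 611 CPM to 796 and 789 CPM, by 0.43 on the log2 scale (standard error 0.0736, FDR = 8.94e-05), and it kept the call without each library in turn. These genes share no exon bases in the annotation.

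Gas5 (ENSMUSG00000053332), named for its rise in growth-arrested cells, lies on the plus strand of chromosome 1 (161034422 to 161038539). It encloses 10 annotated snoRNA rows, the most of the 10 genes. It had 51.6 and 56.3 CPM with DMSO and 67.5 and 59.3 CPM with DAPT, with DAPT replicate 2 close to the higher DMSO library. The log2 fold change was 0.23 (standard error 0.0794, 95% interval 0.066 to 0.40, FDR = 0.0244). Without DMSO replicate 1 it was 0.17 (FDR = 0.199), and without DAPT replicate 1 it was 0.14 (FDR = 0.248). Zbtb37, a zinc finger gene whose span overlaps the start of Gas5 on the other strand, was at 5.16 and 5.20 CPM with DMSO and 5.19 and 5.43 CPM with DAPT (log2 fold change 0.036, FDR = 0.843).

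Snhg12 and Snhg5 were higher in both DAPT libraries and did not pass. Snhg12 (ENSMUSG00000086290; chromosome 4, 132308623 to 132311024, plus strand) had 4.72 and 5.59 CPM with DMSO and 5.79 and 6.84 CPM with DAPT, a log2 fold change of 0.29 (95% interval 0.016 to 0.56, FDR = 0.0832). With 1 library left out it ran from 0.16 without DAPT replicate 2 (FDR = 0.431) to 0.42 without DMSO replicate 2 (FDR = 0.0438), and without DAPT replicate 1 it was 0.40 (FDR = 0.0191). Its neighbour Trnau1ap, which serves in selenocysteine incorporation and lies 739 bases away on the other strand, rose from 20.1 and 17.0 CPM to 23.5 and 22.7 CPM (log2 fold change 0.32, FDR = 0.00785), a call lost without DMSO replicate 2 (FDR = 0.177). Snhg5 (ENSMUSG00000097195; chromosome 9, 88521050 to 88522929, minus strand) had 8.85 and 8.03 CPM with DMSO and 10.5 and 9.23 CPM with DAPT, a log2 fold change of 0.23 (95% interval 0.0029 to 0.45, FDR = 0.0977). With 1 library left out, its value lay between 0.13 without DAPT replicate 1 (FDR = 0.451) and 0.32 without DAPT replicate 2 (FDR = 0.0359). On the side of lower coordinates the nearest gene, 38476 bases away, was Syncrip, which encodes an RNA-binding protein. Syncrip moved the other way (log2 fold change -0.26, FDR = 0.00576), a call lost without DMSO replicate 1, at -0.20.

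All 5 snoRNA hosts were thus higher in both DAPT libraries than in both DMSO libraries, a pattern shown by 35.8% of all tested genes, and 3 of them rose, against 19% of all tested genes. Of these 3, Snhg1 and Gas5 lost their calls without DMSO replicate 1 and under DESeq2 (adjusted p = 0.0549 and 0.0540). The log2 fold changes of the 5 hosts lay between 0.23 and 0.64, with a median of 0.29.

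**Figure D1:**
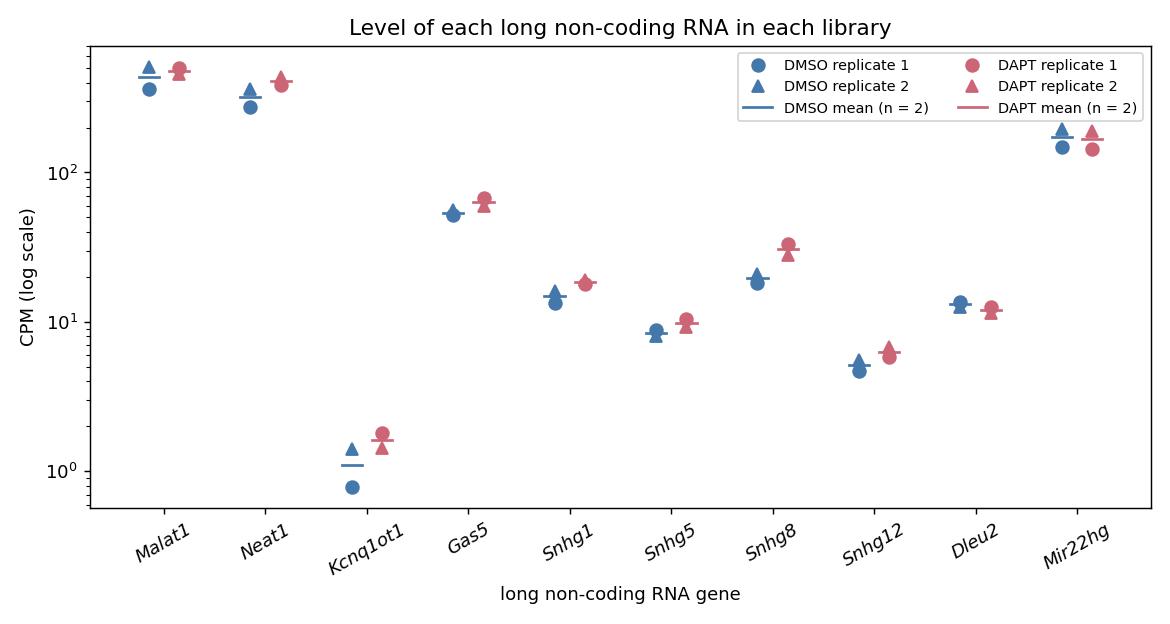
Level of each of the 10 genes in CPM on a log axis, with circles for replicate 1, triangles for replicate 2 and a line at the mean of the 2 libraries of a group. Malat1, Neat1 and Mir22hg stand above 100 CPM and Kcnq1ot1 lies near 1 CPM; the DAPT libraries of Snhg8 (33.1 and 28.3 CPM) lie above its DMSO libraries (18.3 and 20.9 CPM).

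Among the nuclear RNAs, Neat1 (ENSMUSG00000092274) lies on the minus strand of chromosome 19 (5824708 to 5845478) and holds a short and a long form in 1 row. Its level was 276 and 360 CPM with DMSO and 387 and 435 CPM with DAPT, without overlap. The log2 fold change was 0.37 (standard error 0.0958, 95% interval 0.17 to 0.57, FDR = 0.00405). The difference between the DMSO libraries was as large, 0.38 on the log2 scale, and without DMSO replicate 1 the change was 0.19 with an FDR of 0.147. DESeq2 gave an adjusted p of 0.188.

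Malat1 (ENSMUSG00000092341), also on the minus strand of chromosome 19 (5795690 to 5802672), was the most abundant of the 10, the 337th of the 13211 tested genes by mean CPM. It had 364 and 509 CPM with DMSO and 499 and 458 CPM with DAPT, so that both DAPT libraries lay between the DMSO libraries. The log2 fold change of 0.13 (standard error 0.105, 95% interval -0.087 to 0.35, FDR = 0.335) did not pass, and it ran from -0.089 without DMSO replicate 1 to 0.39 without DMSO replicate 2, where the FDR was 0.00160.

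Kcnq1ot1 (ENSMUSG00000101609), annotated over 93.1 kb on the minus strand of chromosome 7 (143203458 to 143296549), was not abundant in these cells. It was counted 34 and 80 times with DMSO, against 87 and 71 times with DAPT, or 0.790 and 1.41 CPM against 1.80 and 1.44 CPM. DMSO replicate 1 was the lowest and DAPT replicate 1 the highest, while DMSO replicate 2 lay just under DAPT replicate 2. The log2 fold change of 0.52 (standard error 0.246, 95% interval 0.0038 to 1.03, FDR = 0.0994) did not pass, and it ranged from 0.20 without DMSO replicate 1 (FDR = 0.623) to 1.03 without DMSO replicate 2 (FDR = 0.00977).

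Neither host of microRNAs passed. Dleu2 (ENSMUSG00000097589; chromosome 14, 61602839 to 61682373, minus strand) had 13.7 and 12.6 CPM with DMSO and 12.5 and 11.4 CPM with DAPT, a log2 fold change of -0.13 (95% interval -0.33 to 0.069, FDR = 0.290). With 1 library left out the value ran from -0.20 without DAPT replicate 1 to -0.067 without DAPT replicate 2, with an FDR of at least 0.188. At its 3′ end the span overlaps that of Trim13, a ubiquitin ligase gene on the other strand, without shared exon bases. Trim13 rose from 22.5 and 23.5 CPM to 32.6 and 37.6 CPM, by 0.61 on the log2 scale (standard error 0.0848, FDR = 7.85e-06).

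Mir22hg (ENSMUSG00000085148; chromosome 11, 75461539 to 75466676, plus strand) had 149 and 194 CPM with DMSO and 144 and 189 CPM with DAPT. Replicate 2 was higher than replicate 1 in both groups, by 0.38 and 0.39 on the log2 scale, and the groups overlapped. The log2 fold change of -0.043 (95% interval -0.27 to 0.19, FDR = 0.788) took either sign when 1 library was left out, from -0.25 to 0.16. Without DAPT replicate 2 the FDR was 0.0115. The gene shares 206 exon bases with Tlcd2 on the same strand (2.30 and 2.63 CPM with DMSO, 2.85 and 2.96 CPM with DAPT), and reads from those bases cannot be assigned to one of them with certainty. The next gene, Prpf8, a core protein of the spliceosome, fell from 187 and 188 CPM to 138 and 138 CPM (log2 fold change -0.44, FDR = 2.76e-05).

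**Figure D2:**
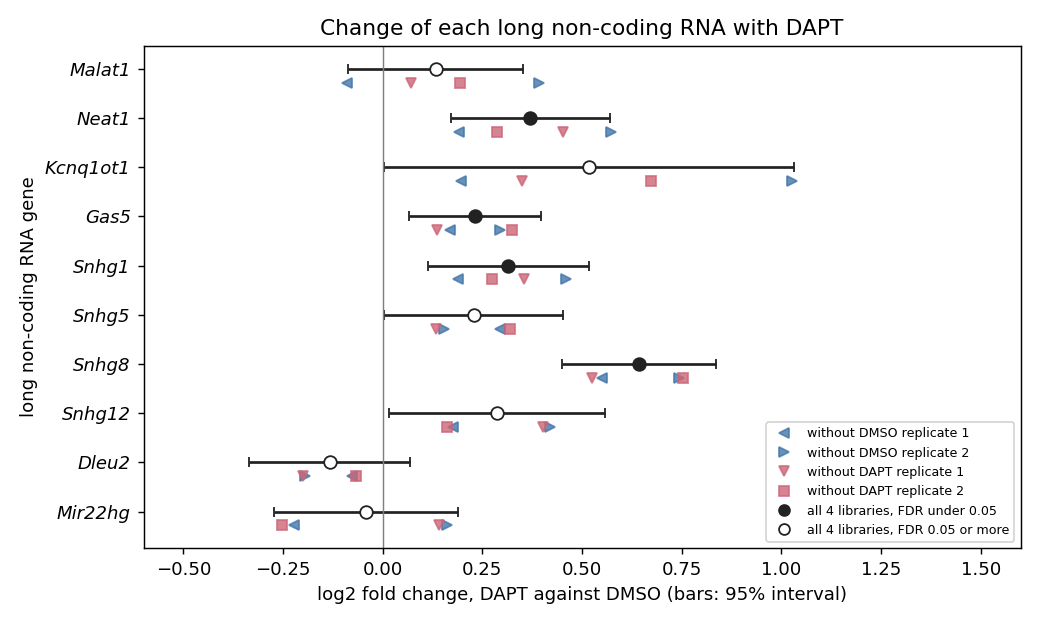
Log2 fold change of each gene, DAPT against DMSO, from all 4 libraries (circles, filled where the FDR is under 0.05, with bars for the 95% interval) and from the 4 fits that leave out 1 library (small marks under each circle). Snhg8 stays between 0.53 and 0.75, whereas Malat1 and Mir22hg fall on both sides of 0.

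The abundant RNAs differed more between replicates than most genes of their depth. Of 5947 tested genes averaging at least 1000 counts, 0.151% differed by more between the DMSO libraries than Malat1 did (0.48 on the log2 scale), 0.235% by more than Mir22hg and 0.252% by more than Neat1. The median absolute difference of these genes was 0.070 and the 90th percentile 0.175. Between the DAPT libraries 0.673% of the genes differed by more than Mir22hg, 16.2% by more than Neat1 and 29.0% by more than Malat1. In DMSO replicate 1, 8 of the 10 genes were lower than in DMSO replicate 2. Between the DAPT libraries replicate 2 was higher for 4 of 10. The shares over all tested genes were not computed. The 10 genes together took 0.0907% and 0.118% of the counts with DMSO and 0.118% and 0.122% with DAPT. The counts of mitochondrial genes were 0.488% and 0.413% with DMSO and 0.372% and 0.335% with DAPT. Whether nuclear RNA was recovered equally in the libraries was not tested.

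For 6 of the 10 genes (the 5 snoRNA hosts and Dleu2) the group difference was larger than both differences between replicates, as it was for 60.9% of all tested genes. In Dleu2 the difference between groups and that between the DAPT libraries were both 0.13 in size. For Malat1, Neat1, Kcnq1ot1 and Mir22hg a difference between replicates was larger.

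**Figure D3:**
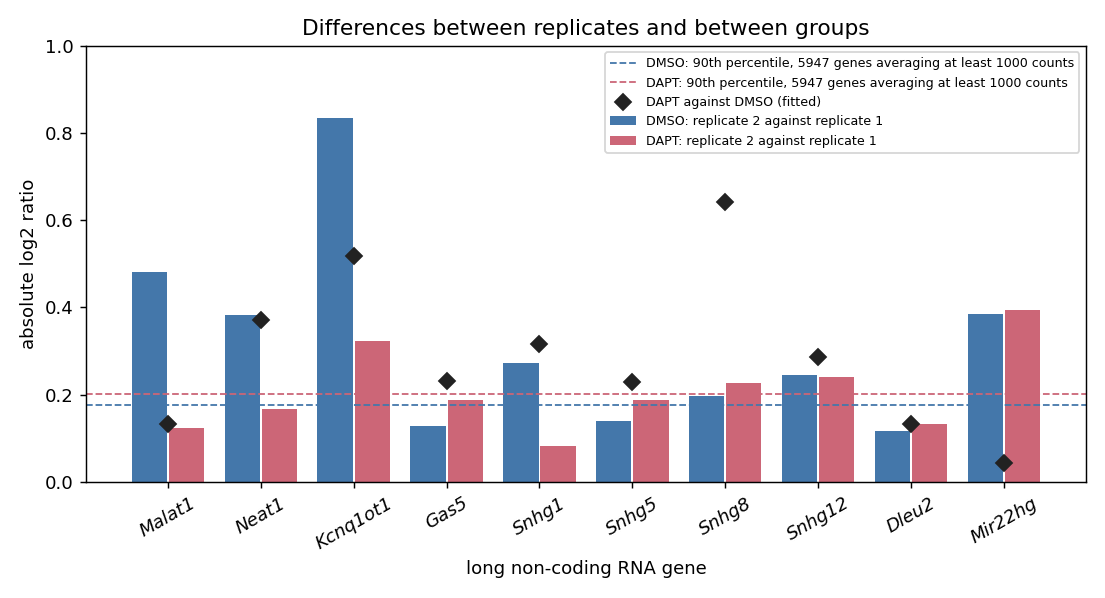
Absolute log2 ratio of replicate 2 to replicate 1 in DMSO (blue bars) and DAPT (red bars), with the fitted absolute log2 fold change between groups (black diamonds) and the 90th percentile of the replicate difference over 5947 genes (dashed lines, 0.175 for DMSO and 0.201 for DAPT). The diamond of Snhg8 stands well above its bars, and the DMSO bars of Malat1, Neat1, Kcnq1ot1 and Mir22hg stand above 0.38.

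Per kb of annotated exon, the order of levels with DMSO was led by Mir22hg with 89.2 ± 16.7 CPM per kb (SD, n = 2). Malat1 (62.5 ± 14.6), Snhg8 (23.0 ± 2.20), Neat1 (15.3 ± 2.86) and Gas5 (14.3 ± 0.891) came next. Snhg1 (4.99 ± 0.662), Snhg5 (4.88 ± 0.334), Snhg12 (2.14 ± 0.256), Dleu2 (1.16 ± 0.0656) and Kcnq1ot1 (0.0118 ± 0.00471) followed, all in CPM per kb. Mir22hg and Malat1 did not differ beyond their spread in the DMSO libraries, nor did Neat1 and Gas5, or Snhg1 and Snhg5. With DAPT the levels of Snhg8 and Neat1 were 35.9 ± 3.99 and 19.8 ± 1.62 CPM per kb. The lengths are those of GENCODE M21, with all exons of a gene merged. They divide Neat1 by its long form and Kcnq1ot1, Snhg1, Snhg8 and Snhg12 by their whole spans. Gas5 (3760 exon bases over 4.118 kb) and Snhg5 (1730 over 1.88 kb) come close to this. In these snoRNA hosts the length includes introns, which may lower the levels per kb, so the order holds for this annotation only. The selection of poly(A) RNA retains Malat1 and the long form of Neat1, whose ends carry no poly(A) tail, only in part.

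The small RNAs inside the hosts were not captured as rows of their own. The hosts enclose 26 annotated snoRNA rows and 3 microRNA rows on their strand, and 28 of the 29 held 0 counts in all 4 libraries, Mir22, Mir15a and Mir16-1 among them. The exception, snopsi28S-3327 inside Snhg12, held 0 and 2 counts with DMSO, against 3 and 4 with DAPT. For counting error a count of 0 allows up to 3 counts per library. The libraries were selected for poly(A) RNA, so these zeros cannot give the level of the small RNAs. The HTSeq mode is not given in the sources used here. Reads on bases shared by a host and a small RNA may therefore have been left uncounted. Such same-strand shared bases made up 669 of the 3760 exon bases of Gas5, 622 of 2969 in Snhg1 and 470 of 2402 in Snhg12.

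Across from Malat1, on the other strand, Gm37376 (chromosome 19, 5801941 to 5802393) held 84 and 114 counts with DMSO, against 24 and 0 with DAPT. It passed in edgeR (log2 fold change -2.999, standard error 0.461, FDR = 2.67e-05), while DESeq2 gave an adjusted p of 0.415. Gm37376 was at -1.99 without DAPT replicate 2. It was at -9.625 without DAPT replicate 1, where the DAPT library left held 0 counts, so that this size is not set by the counts. Per 1000 counts of Malat1 it had 5.36 and 3.95 with DMSO and 0.995 and 0 with DAPT. All 453 of its bases that overlap Malat1 are exonic on both strands, so that reads assigned to the wrong strand and transcripts of its own cannot be told apart. Kcnq1, across from Kcnq1ot1, held 18 and 14 counts with DMSO, against 7 and 8 with DAPT (log2 fold change -1.06, FDR = 0.0880).

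Other snoRNA hosts of the same kind moved both ways. Of 7 tested on a list of 15, 3 rose, 2 fell and 2 did not pass, with a median log2 fold change of 0.27. Snhg15, listed in the table as Gm11974, fell from 14.7 ± 0.941 (SD, n = 2) to 9.70 ± 0.288 CPM, by 0.60 on the log2 scale (FDR = 4.35e-05), and kept its call without each library in turn. Snhg17 fell by 0.55 on the log2 scale (FDR = 0.0207), a call lost without DMSO replicate 2 and without DAPT replicate 1, at -0.20 in the weaker case. Snhg6 rose by 0.37 (FDR = 0.00429), Snhg3 by 0.36 (FDR = 0.0135) and Zfas1, listed as 1500012F01Rik, by 0.33 (FDR = 0.00437), each on the log2 scale. Exons of these 3 overlap genes on the other strand, and each lost its call when 1 library was left out, Snhg6 without DMSO replicate 2, Zfas1 without DMSO replicate 1, and Snhg3 without DMSO replicate 1 or DAPT replicate 1. The list kept 3 of its 5 calls under DESeq2, without DMSO replicate 1, without DMSO replicate 2 and without DAPT replicate 1.

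Of 5 other microRNA hosts tested, 0 passed in edgeR and 0 in DESeq2, and 2, Mir155hg and Mir142hg, had an unadjusted p under 0.05. The count was 1 without DMSO replicate 2, 2 without DAPT replicate 2 and 2 with the replicate block. Mir155hg, the host of miR-155, had 52.2 ± 2.52 CPM with DMSO and 58.9 ± 4.01 CPM with DAPT (log2 fold change 0.17, FDR = 0.0770). Of 7 other nuclear RNAs tested, 2 fell and 5 did not pass. Pvt1, the neighbour of Myc, fell from 4.13 ± 0.160 to 2.32 ± 0.182 CPM (log2 fold change -0.83, FDR = 0.000154), and Peg13, an imprinted RNA, from 17.4 ± 0.834 to 12.0 ± 0.282 CPM (log2 fold change -0.54, FDR = 7.23e-05).

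As a background, of 402 tested genes annotated as lincRNA or processed transcript, 47 rose, 58 fell and 297 did not pass, with a median log2 fold change of 0.013. Among the 245 of them without exons on the other strand, 32 rose and 20 fell, with a median of 0.11. Over all tested genes, 19% rose and 21.9% fell, and none of the lists above and below was tested against these shares.

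For proteins that work with the nuclear RNAs, the share of genes called was near that of all tested genes (40.8%). It was 40% for paraspeckle proteins and 46.7% for speckle and SR proteins. Of 15 paraspeckle proteins, 1 rose, 5 fell and 9 did not pass, with a median of -0.094 on the log2 scale. Rbm14, needed to assemble paraspeckles, rose by 0.31 (FDR = 0.00751), while Pspc1 (-0.27, FDR = 0.0318), a paraspeckle core protein, and Hnrnpa1 (-0.22, FDR = 0.0132) fell. Pspc1 was at -0.16 without DAPT replicate 2, and DESeq2 gave it an adjusted p of 0.116. Without DMSO replicate 2, 2 of the 15 passed, with Pspc1 and Hnrnpa1 among those lost, and without DMSO replicate 1 or DAPT replicate 2, 3 passed. Of 15 speckle and SR proteins, 4 rose, 3 fell and 8 did not pass (median 0.059). Srrm2 and Son, which hold speckles together, fell by 0.36 (FDR = 0.000507) and 0.27 (FDR = 0.00367), and the splicing factor gene Srsf2 rose by 0.33 (FDR = 0.000680) on the log2 scale. Without DMSO replicate 2 or DAPT replicate 2, 4 of the 15 passed, and Son lost its call in the first case.

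Of 16 snoRNP proteins and assembly factors, which package the snoRNAs, 5 rose, 0 fell and 11 did not pass, with a median of 0.16. Shq1, an assembly factor of H/ACA particles, rose by 0.50 (FDR = 0.00885), Znhit3, an assembly factor of box C/D particles, by 0.35 (FDR = 0.0365) and Nhp2, an H/ACA core protein, by 0.30 (FDR = 0.00501), on the log2 scale. Shq1 lost its call without DMSO replicate 2 or DAPT replicate 2, and Znhit3 without DMSO replicate 1 or DAPT replicate 2, where its value was 0.20 (FDR = 0.329). DESeq2 called 1 of the 16 (Nhp2), and without DMSO replicate 1, DMSO replicate 2 or DAPT replicate 2, 2 passed. At an unadjusted p under 0.05, 6 were higher and 0 lower. Among 25 protein-coding snoRNA hosts, 0 rose and 2 fell, Eef2 (-0.22, FDR = 0.0236) and Hspa8 (-0.20, FDR = 0.0297), with a median of 0.034. DESeq2 called the same number, 0 and 2, and at an unadjusted p under 0.05 there were 3 in each direction. Neither passed without DMSO replicate 2 or without DAPT replicate 2, and Hspa8 also lost its call without DMSO replicate 1.

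Of 40 5′ TOP mRNAs, which encode ribosomal proteins and translation factors, 3 rose, 5 fell and 32 did not pass (median 0.033). The ribosomal stalk genes Rplp1 and Rplp2 rose by 0.37 (FDR = 0.00238) and 0.32 (FDR = 0.00260), and Pabpc1, the poly(A)-binding protein, had a log2 fold change of -0.27 (FDR = 0.00720). Leaving out DMSO replicate 1 gave 0.22, 0.21 and -0.24 in this order. Without DMSO replicate 1 these 3 lost their calls and 2 of the 40 passed, and without DMSO replicate 2 or DAPT replicate 2, 5 passed. Of 17 nonsense-mediated decay factors, 1 rose (Smg9, 0.40, FDR = 0.000677), 2 fell (Smg6, -0.38, FDR = 0.00254, and Casc3, -0.29, FDR = 0.00494) and 14 did not pass (median 0.045). Casc3 lost its call without DMSO replicate 2, and without DAPT replicate 2, 6 of the 17 passed.

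Of 15 genes of microRNA processing and silencing, 8 fell, 1 rose and 6 did not pass, with a median of -0.21. Over all tested genes 21.9% were lower and 19% higher with DAPT, and the list was not tested against these shares. Ago3, an Argonaute, fell by 0.69 (FDR = 8.41e-07), Tnrc6b, its GW182 partner, by 0.67 (FDR = 2.80e-06), and Tarbp2, a partner of Dicer, rose by 0.46 (FDR = 0.000283), all kept without each library in turn. Without DMSO replicate 1, 4 of the 15 passed. Of 9 textbook targets of miR-15 and miR-16, 2 rose, 4 fell and 3 did not pass. Ccne1 (cyclin E1) rose by 0.86 (FDR = 3.72e-07), and Chek1 (a checkpoint kinase) and Ccnd2 (cyclin D2) fell by 0.81 (FDR = 0.00108) and 0.65 (FDR = 1.36e-06) on the log2 scale.

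In the imprinted domain that Kcnq1ot1 silences, 8 of 12 genes were tested, of which 1 rose, 1 fell and 6 did not pass. Cdkn1c, a CDK inhibitor gene of the domain, was counted 49 and 47 times with DMSO, against 87 and 86 times with DAPT, a log2 fold change of 0.87 (FDR = 0.00368). DESeq2 gave an adjusted p of 0.0669, and without DMSO replicate 2 the FDR was 0.0841. Cd81, a tetraspanin at the edge of the domain, fell from 95.8 ± 3.42 to 75.9 ± 2.69 CPM (log2 fold change -0.34, FDR = 0.000775).

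**Figure D4:**
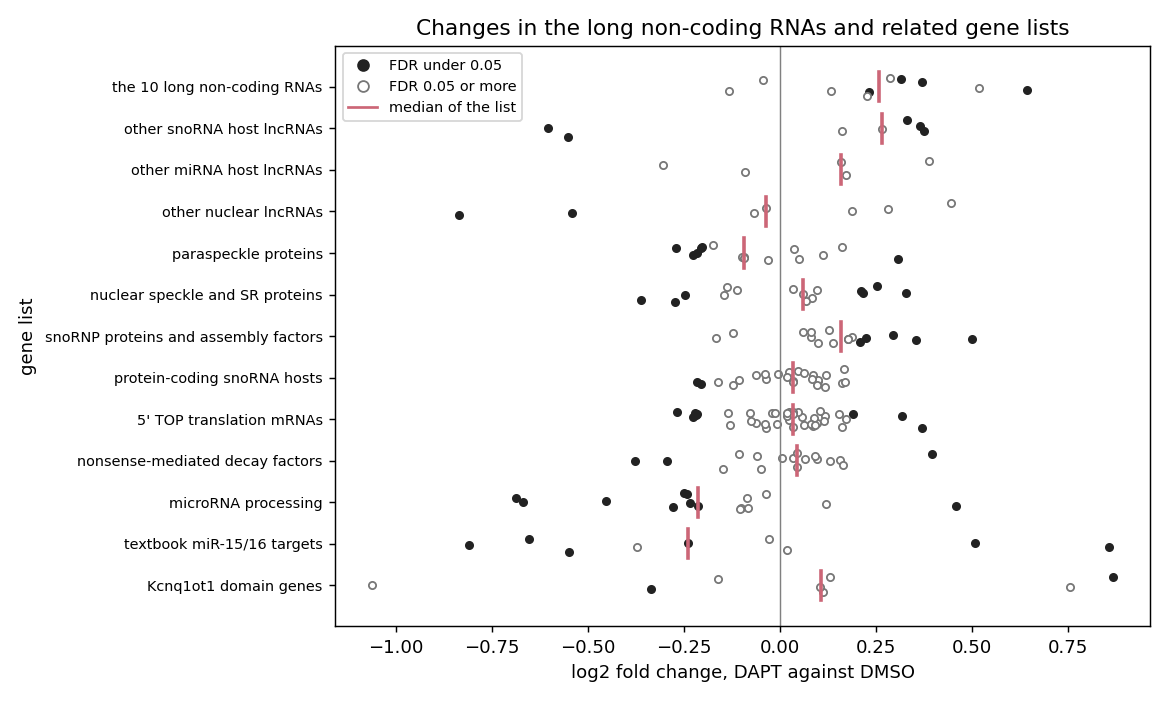
Log2 fold change of each tested gene in the 10 long non-coding RNAs and in 12 related lists, DAPT against DMSO, filled where the FDR is under 0.05, with a red line at the median of each list. The medians lie between -0.24 and 0.27, and the protein-coding snoRNA hosts and 5′ TOP mRNAs cluster around 0.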

How the data were processed

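Libraries were prepared with a TruSeq stranded mRNA kit, which selects poly(A) RNA and keeps the strand, and sequenced on a NextSeq 500. The authors trimmed adapters with Trimmomatic, aligned the reads with STAR (2.5.0a per the submitters' processing notes) to mm10 and counted them per gene with HTSeq, and they deposited raw counts for 47069 Ensembl gene IDs and 16 runs, without normalization. The notes also list mm9. HTSeq's version, mode and strand setting are not given in the sources used here.

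Here the 4 runs of a replicate were summed, since they differed by about as much as counting error (chi-square per degree of freedom 1.01 to 1.03). edgeR 4.0.16 (R 4.3.3) fitted group alone, after filterByExpr and TMM scaling, and tested it by quasi-likelihood, with Benjamini-Hochberg adjustment over 13211 genes, after the study's use of edgeR. The thresholds were an FDR of 0.05 and an absolute log2 fold change of 1.5. CPM used the TMM-adjusted library sizes, and a standard error is the log2 fold change divided by the square root of F. The code was tested on simulated data. Alternatives were DESeq2 1.42.0, RLE or no factors, no filter, a minimum of 10 counts per library, a replicate block, runs as samples, a likelihood ratio test and leaving out each library, where a lone library was assumed to vary like the other group.

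Positions, exon lengths and overlaps came from GENCODE M21 (GRCm38), which holds 98.8% of the IDs. The release behind the counts is not given in the sources used here, so lengths and shared bases may differ from those used in counting. Sequences are RefSeq's on GRCm38.p6.

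The genes and lists were chosen with earlier results of these data known. Named outside the 10 genes were the 3 largest passing changes of each list (5 among the snoRNA hosts, of which Snhg3 and Zfas1 were added), overlapping genes and nearest neighbours. Mir155hg, Mir142hg, Tug1, Firre and Xist were added after their values were seen. Some neighbouring and marker genes are not reported here.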

Additional observations from a re-analysis of the deposited data

How the results depend on the processing

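The directions of Snhg8 and Dleu2, and their sides of the FDR threshold, were the same under the 12 alternatives. The number of the 10 genes with an FDR under 0.05 was 4 in the reported fit, 1 with DESeq2, 7 with the replicate block and 7 with the 16 runs as separate samples, and from 1 to 7 when 1 library was left out. Malat1 turned to -0.089 without DMSO replicate 1 (range -0.089 to 0.39), and Mir22hg to 0.16 without DMSO replicate 2 and 0.14 without DAPT replicate 1 (range -0.25 to 0.16). The cause was not tested. Of 163 tested listed genes, 53 passed, against 102 with the runs as samples and 31 to 50 with 1 library left out. Of 37 named genes outside the 10, 20 kept an FDR under 0.05 in all 4 fits without 1 library and 30 under DESeq2. Past both thresholds were 385 of all tested genes, 154 under a minimum of 10 counts in each library, where fewer genes are tested, and 178 with the runs as samples, and 0 of the 10 genes under each alternative. The 2 groups share replicate numbers, which the labels do not explain. With only 2 pairs, replicate differences correlated at 0.155 over genes. The block added Kcnq1ot1, Snhg5 and Snhg12 (FDR = 0.0306, 0.0445 and 0.0243) and raised the calls over all genes from 5392 to 6444. The median over all genes moved by -0.0076 to 0.0075 on the log2 scale under the alternatives.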

Other observations

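Xist and Firre were also lower in DMSO replicate 1 than in DMSO replicate 2. Xist, the RNA that coats the inactive X chromosome, had 315 and 376 CPM with DMSO and 329 and 330 CPM with DAPT. Firre, which anchors chromatin in the nucleus, had 13.5 and 19.7 CPM with DMSO and 15.9 and 16.7 CPM with DAPT. Both were chosen after their values were seen, and neither passed between the groups (log2 fold change -0.068 and -0.036, FDR = 0.524 and 0.842). Tug1 differed in the other direction, with 69.3 and 60.9 CPM with DMSO and 73.7 and 74.5 CPM with DAPT.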
